A study of Homo sapiens with 6 samples.

Results

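ZNF585A and 9 further zinc finger genes of its neighbourhood on chromosome band 19q13.12 were followed in wild-type HT1080 cells and in a TOP3B knockout of them. These 10 genes, of 35819 in the deposited tables, were ZNF585A, ZNF585B, ZNF383, ZNF345, ZNF568, ZNF420, ZNF790, ZNF829, ZNF570 and ZNF793. They were found by gene symbol and were chosen for the 3.86-fold lower level of ZNF585A in the knockout libraries. The level of ZNF585A in that contrast is therefore given as a description, with no test. HT1080 is a human fibrosarcoma cell line, and TOP3B encodes topoisomerase III-beta, which acts on DNA and RNA. Total RNA depleted of ribosomal RNA was sequenced in 3 libraries of wild-type (WT) cells and 3 of a knockout. The knockout carried a CRISPR edit guided to exon 2 of TOP3B, and the labels name a single knockout line, E2-2. Traits of that line and effects of the TOP3B edit therefore cannot be told apart. No treatment is named for either group, and the study asked how TOP3B affects R-loops and transcription.

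Zinc finger genes of this kind encode proteins in which a row of zinc fingers binds DNA. In most proteins of the chromosome 19 clusters a KRAB domain recruits the corepressor TRIM28, through which histone methylation and heterochromatin proteins are brought to the bound site. Many of these proteins are known for silencing transposable elements. The genes arose by repeated local duplication, so that neighbours can be close copies of each other.

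Library totals lay between 17919106 and 20475280 estimated counts. Knockout replicate 3 stood apart. The SD of log2 differences over abundant genes was 0.599 and 0.623 between it and the other knockout libraries, 0.238 between those, and at most 0.327 within WT. Results that rest on that library are given with and without it. TOP3B itself had 536, 376 and 469 counts in WT replicates 1 to 3 and 407, 383 and 361 counts in knockout replicates 1 to 3. The mean was 24.2 ± 5.82 CPM (counts scaled to a common library total; SD, n = 3) in WT and 19.3 ± 0.774 CPM (SD, n = 3) in the knockout, and the groups overlapped. Its log2 fold change was -0.33 ± 0.19 (SE), which did not pass the test (edgeR adjusted p = 0.342), and gene-level counts do not check a small edit in an exon. Of 11 mesenchymal markers, 8 were above 1 CPM in each group, summing to 29863 to 30948 CPM in WT and 18383 to 20220 CPM in the knockout. FN1 (11748 to 3174 CPM) and SPARC (5727 to 3445 CPM) made up most of that difference. FN1, SPARC and the less abundant COL1A1 passed, COL1A1 at 6.20 CPM in WT and 1.33 CPM in the knockout (edgeR adjusted p = 0.0156). VIM, at 11666 and 11525 CPM (edgeR adjusted p = 0.88), and CD44, at 1353 and 1245 CPM (edgeR adjusted p = 0.458), did not pass. Whether the shift in FN1, SPARC and COL1A1 has a part in the values of the members was not tested. The fibroblast markers THY1 and FAP were at or near 0 in both groups. Of 10 epithelial markers, 4 were above 1 CPM in each group, namely KRT8, KRT18, CDH1 and CLDN4. The 10 summed to 107.5 to 132.7 CPM, mostly of KRT8, at 92.7 CPM in WT and 90.5 CPM in the knockout. EPCAM, VIL1 and CDX2 were near 0 or at 0 in all libraries. HT1080 is the line in every sample label, although the series text has HCT116, an epithelial line, at 1 mention of the WT cells. Separate cultures are not stated for the replicates. The p-values thus set the group difference only against the spread between these libraries, and that spread may be technical.

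The 10 genes lie between positions 36817428 and 37548762 of chromosome 19 (GENCODE v29, GRCh38), on both strands. ZNF585A runs on the minus strand from 37106734 to 37172741, and its near neighbour ZNF585B on the same strand from 37181579 to 37218153. ZNF383 starts 227 bases from the outermost GENCODE start of ZNF585B and runs the other way. The RefSeq starts of ZNF585B and ZNF383 are 7678 bases apart, so the distance depends on the annotation. ZNF790 and ZNF345 are also head to head, with starts 426 bases apart, as are ZNF829 and ZNF568, with starts 38 bases apart. ZNF345 overlaps ZNF829 over 24906 bases on opposite strands, and ZNF420 overlaps ZNF585A over 23581 bases. The library kit keeps strand, but use of strand in the counting was not given in the sources used here. Reads from the shared stretches may therefore have been assigned to either gene.

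The promoter windows of ZNF585A and ZNF585B are shown because these genes are close copies and ZNF585A is the gene for which the set was chosen. Those of ZNF345 and ZNF829 are shown as examples of the other members. Each holds the 250 bases before an annotated RefSeq start (GRCh38.p14, 5′ to 3′ on the strand of the gene), and capitals mark the motif letters described next. The windows are chr19:37172696-37172945 (minus strand) for ZNF585A, chr19:37210537-37210786 (minus) for ZNF585B, chr19:36850115-36850364 (plus) for ZNF345 and chr19:36916040-36916289 (minus) for ZNF829.
ZNF585A: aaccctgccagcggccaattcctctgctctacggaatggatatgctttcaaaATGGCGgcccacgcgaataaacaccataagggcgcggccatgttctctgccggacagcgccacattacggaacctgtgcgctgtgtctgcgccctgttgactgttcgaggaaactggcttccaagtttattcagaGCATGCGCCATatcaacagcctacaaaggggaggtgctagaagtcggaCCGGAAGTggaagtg
ZNF585B: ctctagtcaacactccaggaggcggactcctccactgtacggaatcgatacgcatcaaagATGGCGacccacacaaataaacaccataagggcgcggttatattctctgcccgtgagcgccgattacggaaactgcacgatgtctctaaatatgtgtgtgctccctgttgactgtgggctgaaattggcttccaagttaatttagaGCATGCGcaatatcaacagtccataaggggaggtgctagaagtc
ZNF345: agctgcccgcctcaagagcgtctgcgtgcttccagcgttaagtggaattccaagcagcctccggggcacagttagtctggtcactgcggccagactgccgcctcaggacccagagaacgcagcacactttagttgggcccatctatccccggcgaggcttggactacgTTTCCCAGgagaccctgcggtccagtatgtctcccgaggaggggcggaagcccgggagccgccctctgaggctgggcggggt
ZNF829: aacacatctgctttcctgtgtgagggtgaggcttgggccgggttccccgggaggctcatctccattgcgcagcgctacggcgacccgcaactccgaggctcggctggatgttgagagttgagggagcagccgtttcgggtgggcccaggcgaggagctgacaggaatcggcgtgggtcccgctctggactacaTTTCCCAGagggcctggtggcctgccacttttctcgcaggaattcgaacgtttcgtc

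All 10 members matched a RefSeq promoter window, with 19 windows in all. The ZNF585A and ZNF585B windows were identical at 193 of 273 alignment columns (70.7%), against 46.4% to 54.9% in the other 44 pairs of members, of which the first listed window was taken. Motif letters were chosen after the sequences were seen, and both strands were searched. The letters GCATGCG, the centre of the NRF1 motif, were in the windows of ZNF585A and ZNF585B and of no other member. They were in 4.16% of 27305 genes and 6.19% of the chromosome 19 zinc finger genes. Of the 26 zinc finger genes from ZNF146 to ZNF573 on 19q13.12 with a window, members included, 5 held them, so they are not particular to the pair. ATGGCG, from the YY1 motif, was in ZNF585A, ZNF585B, ZNF383 and ZNF793, against 7.77% of genes and 14.3% of 210 zinc finger genes of chromosome 19. In ZNF585A a second ATGGCG lies on the other strand and overlaps GCATGCG. CCGGAAGT, an ETS motif, was in ZNF585A, in ZNF568 and in another window of ZNF829 that is not printed here. It was in 4.13% of genes and 15.2% of the chromosome 19 zinc finger genes. The ZNF585B window ends just before the position that lines up with these letters in ZNF585A, so that position was not searched. ZNF568 and ZNF829 start head to head, and CCGGAAGT and TTTCCCAG are each the same site in both genes, read from opposite strands. TTTCCCAG, from the ZNF143 motif, was in the windows of the 7 members other than ZNF585A, ZNF585B and ZNF793. It was in 3.55% of all genes and in 15.7% of the chromosome 19 zinc finger genes. Of the 26 genes from ZNF146 to ZNF573, TTTCCCAG was in 13, ATGGCG in 5 and CCGGAAGT in 4. A gene counted if any of its windows held the letters. The members had 19 windows for 10 genes, against 35116 windows for 27305 genes, so the shares are not like for like. These matches describe letters only. Factor binding was not measured.

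ZNF585A was lower in every knockout library than in every WT library. Its estimated counts were 253, 304 and 297 in WT replicates 1 to 3 and 79, 96 and 54 in knockout replicates 1 to 3, or 14.4, 15.4 and 14.6 CPM against 3.89, 4.83 and 2.76 CPM. The WT libraries lay close together, and the lowest value was in knockout replicate 3. Mean levels were 14.8 ± 0.532 and 3.83 ± 1.04 CPM (SD, n = 3 each). The log2 fold change was -1.95 ± 0.24 (SE). With each library left out in turn it lay between -2.15 and -1.77, the latter without knockout replicate 3. In bulk RNA, fewer cells that express a gene and less RNA per cell cannot be told apart.

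ZNF585B, the close copy, gave overlapping values in the groups. WT libraries held 602, 629 and 650 counts and knockout libraries 542, 601 and 664, or 34.3, 31.9 and 32 CPM against 26.7, 30.3 and 34.0 CPM. With a log2 fold change of -0.11 ± 0.14 (SE), it did not pass (edgeR adjusted p = 0.652). Of the 31-base words in annotated ZNF585A transcripts, 14.1% also occurred in those of ZNF585B, and 20% of the ZNF585B words occurred in ZNF585A. Reads from these stretches could have been divided between the genes, so the level of each carries that uncertainty.

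**Figure D1:**
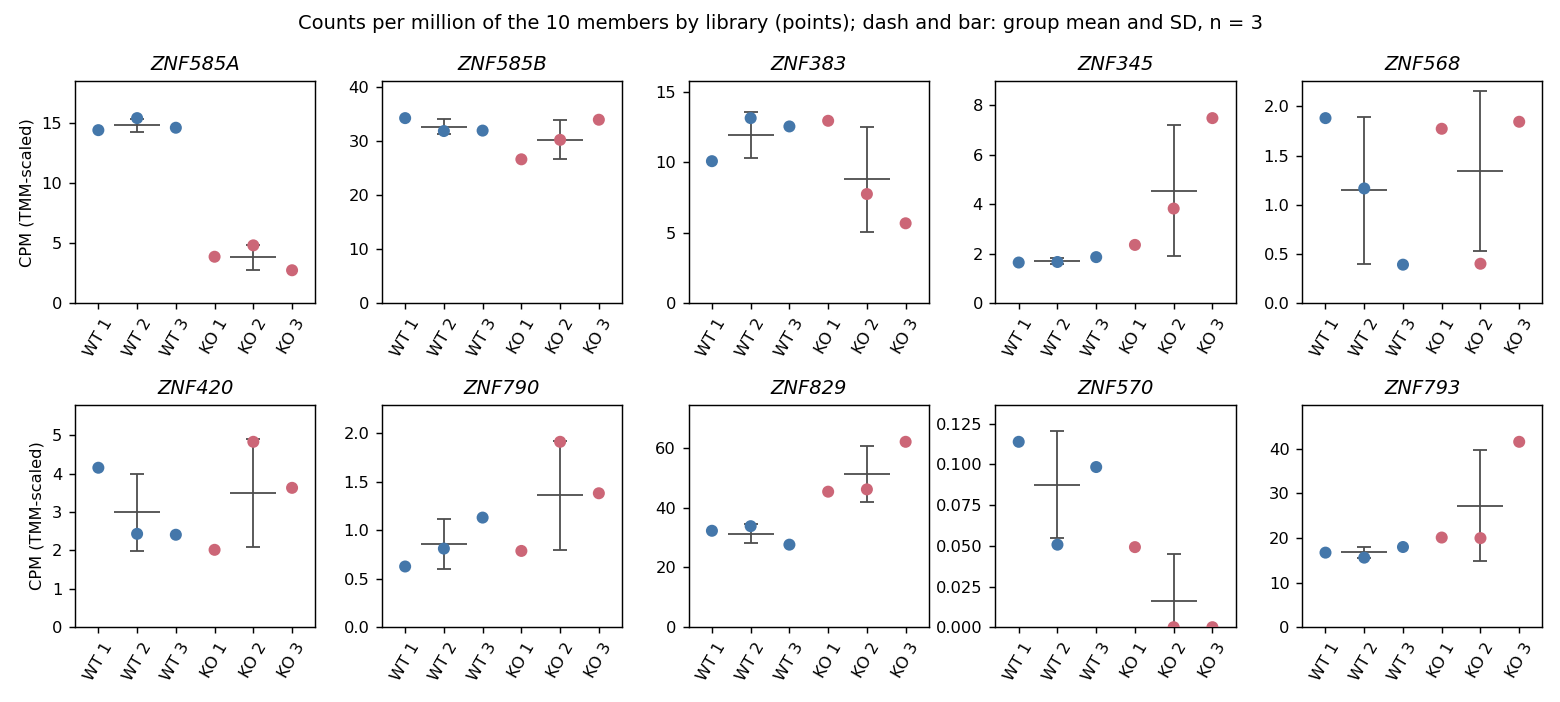
CPM (vertical axis, linear and starting at 0 in each panel) of the 10 members in the 3 WT (blue) and 3 knockout (KO, red) libraries, with the group mean and SD. ZNF585A lies at 14.4 to 15.4 CPM in WT and 2.76 to 4.83 CPM in the knockout, while ZNF585B, ZNF383, ZNF568, ZNF420 and ZNF790 overlap between groups.

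The sum of the pair does not depend on how shared reads were divided between its members. It came to 855, 933 and 947 counts in WT against 621, 697 and 718 in knockout libraries, or 47.5 ± 1.07 against 34.1 ± 3.22 CPM (SD, n = 3 each). The groups did not overlap in CPM, and the summed row had a log2 fold change of -0.48 ± 0.12 (SE). Of all genes tested, 17.1% were likewise lower in every knockout library than in every WT library. ZNF585A took 29.6%, 32.6% and 31.4% of the pair in WT, and 12.7%, 13.8% and 7.52% in knockout replicates 1 to 3. The 95% Wilson intervals reached no lower than 26.6% in WT and no higher than 16.5% in the knockout, for counting error only. The mean share was 31.2% ± 1.51 in WT and 11.3% ± 3.35 in the knockout (SD, n = 3 each). These values include the counts for which ZNF585A was chosen, so they are given with no test.

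**Figure D2:**
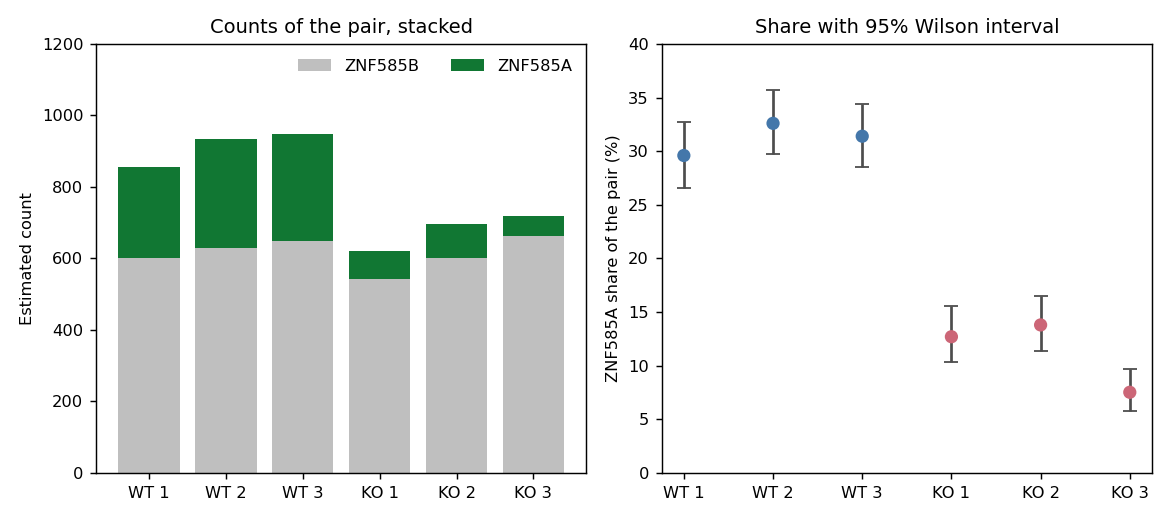
Left, estimated counts of ZNF585A (green) stacked on ZNF585B (grey) in each library. Right, the share of ZNF585A in the pair in percent with 95% Wilson intervals, 29.6% to 32.6% in WT (blue) and 7.52% to 13.8% in the knockout (KO, red).

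Of the 10 members, 9 passed the filter on low counts, and 1 of these, ZNF585A, was below 0.05 in adjusted p by the quasi-likelihood test of edgeR. Of all 13965 genes tested 7.84% passed, with 4.63% lower and 3.21% higher in the knockout. Because ZNF585A was chosen from this contrast, nothing is read from that count. None of the other 8 passed in edgeR. An unadjusted p under 0.05 was found for 2 of the 8, near the 24.7% of all genes tested. In DESeq2 1, ZNF829, passed, against 15.7% of all genes tested. The groups did not overlap in 3 of the 8, ZNF829, ZNF345 and ZNF793, with the knockout the higher group in each. Over all genes tested they did not overlap in 33.6%, with the knockout higher in 16.5% and lower in 17.1%. ZNF585A, lower in the knockout, was chosen from this contrast and is left out of that count. The median log2 fold change of the 8 was 0.445, against 0.05 over all genes tested. Without knockout replicate 3 these medians were 0.216 and 0.013.

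ZNF829 was the member nearest to the threshold. WT libraries held 566, 666 and 561 counts and knockout libraries 921, 915 and 1211, or 32.2, 33.8 and 27.6 CPM against 45.3, 46.1 and 62.0 CPM. The highest value was in knockout replicate 3, and the other knockout libraries also lay above WT. The log2 fold change of 0.71 ± 0.17 (SE), 1.64-fold, had an edgeR adjusted p of 0.0505. Without knockout replicate 3 it was 0.54 and passed (adjusted p = 0.0370), while over all 16 alternatives its adjusted p ranged from 0.00346 to 0.176. ZNF568, which starts 38 bases away on the other strand, had 33, 23 and 8 counts in WT against 36, 8 and 36 in knockout libraries. Its groups overlapped, at 1.15 ± 0.743 and 1.34 ± 0.811 CPM (SD, n = 3 each), and its log2 fold change of 0.23 ± 0.73 (SE) turned negative with any of 3 libraries left out. The mouse counterpart of ZNF568 is known to silence a placental form of Igf2.

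ZNF345 had the largest positive log2 fold change of the members, 1.39 ± 0.45 (SE), and did not pass (edgeR adjusted p = 0.116). WT libraries held 29, 33 and 38 counts and knockout libraries 48, 76 and 146, or 1.65, 1.67 and 1.87 CPM against 2.36, 3.83 and 7.47 CPM. The groups did not overlap, and knockout replicate 3 was the highest. Without that library the log2 fold change was 0.825 (adjusted p = 0.165). Its head-to-head partner ZNF790 had 11, 16 and 23 counts in WT against 16, 38 and 27 in knockout libraries. The ZNF790 groups overlapped, and the log2 fold change was 0.66 ± 0.46 (SE; edgeR adjusted p = 0.421). Part of ZNF345 overlaps ZNF829 on the other strand, and the part of that overlap in the values of either gene was not tested.

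The ZNF793 difference rested largely on 1 library. WT libraries held 293, 307 and 365 counts and knockout libraries 408, 396 and 811, or 16.7, 15.6 and 18 CPM against 20.1, 19.9 and 41.5 CPM. All knockout libraries lay above WT, and knockout replicate 3 was far above the others. The log2 fold change was 0.70 ± 0.31 (SE; edgeR adjusted p = 0.217) and 0.25 without that library (adjusted p = 0.268). ZNF383, the next gene after ZNF585B, had 177, 259 and 255 counts in WT against 263, 154 and 111 in knockout libraries. Its groups overlapped, with 12.9 CPM in knockout replicate 1 and 5.68 CPM in replicate 3. It did not pass, at -0.44 ± 0.32 (SE) on the log2 scale (edgeR adjusted p = 0.439), and was -0.21 without knockout replicate 3 and -0.83 without knockout replicate 1 (adjusted p = 0.138).

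ZNF420, known as a repressor of p53-dependent apoptosis, lies partly opposite the long annotated transcripts of ZNF585A. WT libraries held 73, 48 and 49 counts and knockout libraries 41, 96 and 71, at 3.0 ± 1.0 and 3.49 ± 1.41 CPM (SD, n = 3 each). The groups overlapped, with a log2 fold change of 0.22 ± 0.41 (SE; edgeR adjusted p = 0.773). ZNF570 had 2, 1 and 2 counts in WT against 1, 0 and 0 in knockout libraries and was below the filter. Its ratio of knockout to WT was 0.193, with a 95% exact binomial interval of 0.00408 to 1.72 for counting error, so no difference was detectable at this depth.

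**Figure D3:**
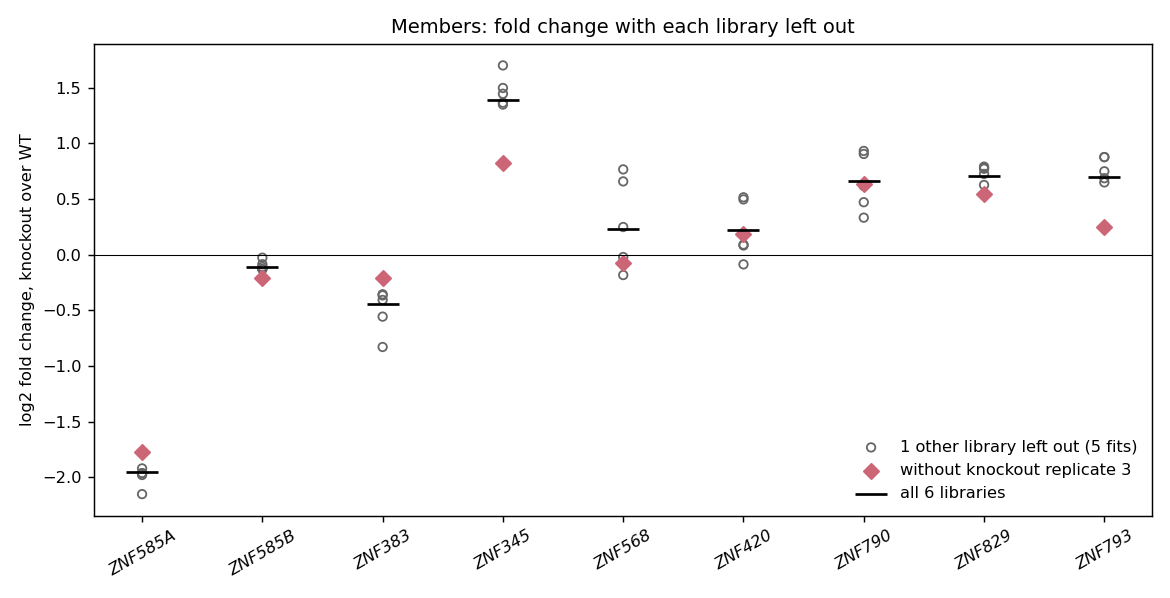
log2 fold change (knockout over WT) of the 9 tested members with all 6 libraries (dash), without knockout replicate 3 (red diamond) and with each of the other 5 libraries left out (open circles). ZNF585A stays between -2.15 and -1.77, ZNF793 moves from 0.70 to 0.25 and ZNF345 from 1.39 to 0.825 without knockout replicate 3.

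Levels can be compared between genes only per length. The deposited RPKM values, which scale counts to depth and length, divide by a length close to the mean genomic span of the annotated transcripts of a gene (34155 bases for ZNF585A, against 34198 implied by count and RPKM). They are thus low for genes with long introns. On this scale ZNF585B had the highest level of the members in WT, 1.73 ± 0.0775 RPKM, followed by ZNF829 at 1.37 ± 0.124, ZNF793 at 0.647 ± 0.0547 and ZNF383 at 0.613 ± 0.0813 RPKM (SD, n = 3 each). The WT ranges of ZNF793 and ZNF383 overlapped. ZNF585A was the fifth at 0.425 ± 0.0115 RPKM and lay apart from the genes on either side. ZNF420, ZNF345, ZNF790, ZNF568 and ZNF570 followed, with means of 0.0549 RPKM or less. Of neighbours in this order, ZNF420 overlapped ZNF345, and ZNF790 overlapped ZNF568. ZNF568, at up to 0.0463 RPKM, also reached into the ranges of ZNF345 and ZNF420.

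In the knockout ZNF829 led on the RPKM scale at 2.34 ± 0.512 RPKM, apart from ZNF585B at 1.68 ± 0.252 RPKM (SD, n = 3 each). ZNF793 came next at 1.1 ± 0.544 RPKM, and its range overlapped that of ZNF585B. ZNF585A, at 0.113 ± 0.0282 RPKM, then overlapped ZNF345 at 0.134 ± 0.0818 and ZNF420 at 0.0667 ± 0.0267 RPKM. Per kilobase of mean annotated transcript length instead of span, the order of the first 7 genes in WT was the same, from 19.4 CPM per kilobase for ZNF585B to 1.34 for ZNF345, with ZNF585A at 4.0. In the knockout the order changed, with ZNF585B at 17.9 above ZNF829 at 15.4 CPM per kilobase. There ZNF585A, at 1.03, was below ZNF345 at 3.52 and ZNF420 at 3.38. The order in the knockout thus depends on the length used.

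The surrounding cluster gave a wider view. Of 30 zinc finger genes listed from ZNF146 to ZNF573 on 19q13.12, 24 were tested, and HKR1 was not analysed here. The 1 gene of these past the threshold was ZNF585A (4.17%, against 7.84% of all genes tested), which was chosen from this contrast, so nothing is read from that count. Among the 15 tested genes of this list that are not members, none passed in edgeR, no unadjusted p was under 0.05, and none passed in DESeq2. Of these 15, 8 had a positive and 7 a negative log2 fold change, with a median of 0.07. Only genes whose symbol matched GENCODE v29 could be placed by position. Within 1000 kb of the ZNF585A start, 27 other genes of any kind were placed and tested. None passed in edgeR, an unadjusted p under 0.05 was found for 4 of the 27, and 2, ZNF829 and SIPA1L3, passed in DESeq2. Over all genes tested those shares were 24.7% and 15.7%, so neither of these 2 local counts exceeds the background. The groups did not overlap in 6 of the 27, all higher in the knockout. Over all genes tested 16.5% were apart and higher and 17.1% apart and lower. The median log2 fold change of the 27 was 0.221, against 0.05 over all genes tested. The nearest tested genes so placed, within 250 kb, were ZNF383, ZNF585B, ZNF420 and ZNF527, at log2 fold changes of -0.44, -0.11, 0.22 and -0.28. Of the chromosome 19 zinc finger genes outside this list, 163 were tested, of which 14 rose and 4 fell (11%). Over all genes tested 7.84% passed, with 3.21% higher and 4.63% lower in the knockout. Of 215 tested zinc finger genes on other chromosomes, 6 rose and 4 fell (4.65%).

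**Figure D4:**
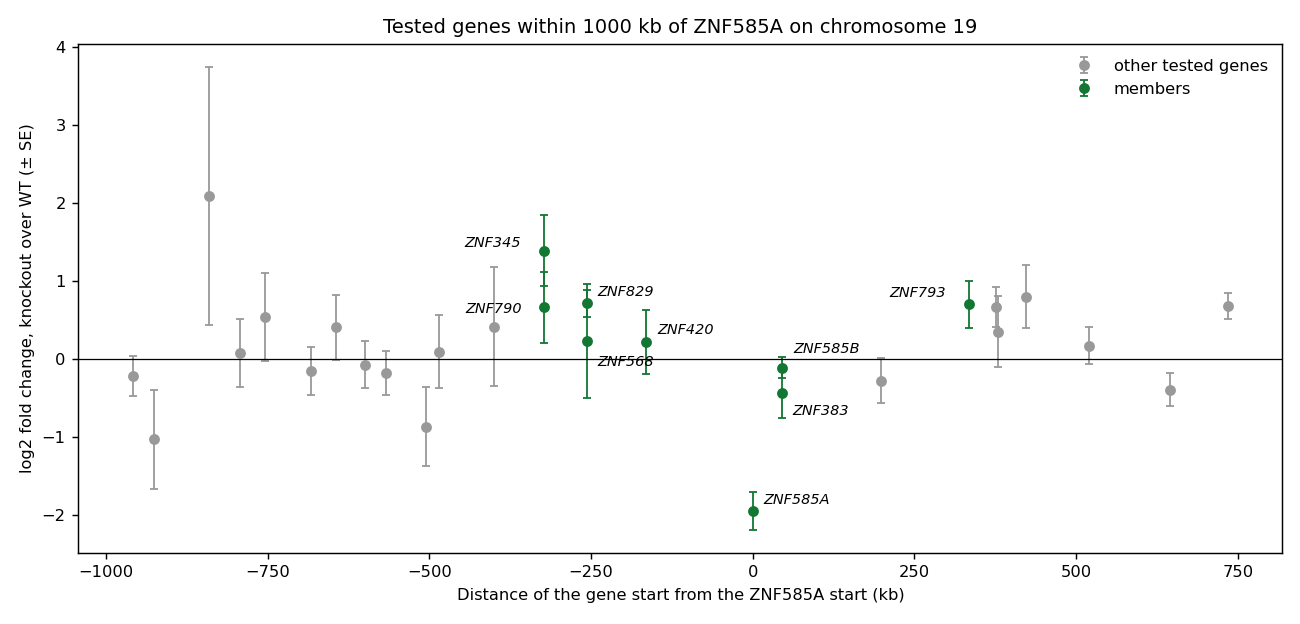
log2 fold change (knockout over WT, bars are SE) of the 28 tested genes within 1000 kb of ZNF585A against the distance of their annotated start from that of ZNF585A in kb, with members in green. ZNF585A lies at -1.95, while the members nearest to it, ZNF383 and ZNF585B, lie at -0.44 and -0.11.

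Proteins of this family act through corepressors, whose genes were taken as a list of 30. All 30 were tested, with 1 that rose, 1 that fell and 28 that did not pass (6.67% passed, against 7.84% of all genes tested). Their median log2 fold change was 0.09, against 0.05 over all genes tested. CHD3, a remodelling subunit of the NuRD complex, fell from 219 ± 12.8 to 145 ± 17.6 CPM (SD, n = 3 each; log2 fold change -0.60 ± 0.12 SE, edgeR adjusted p = 0.0284). HDAC1, a histone deacetylase, rose from 17.6 ± 0.390 to 26.3 ± 2.03 CPM (SD, n = 3 each; log2 fold change 0.58 ± 0.13 SE, edgeR adjusted p = 0.0423). Both calls were lost in 5 of the 6 fits without 1 library, that without knockout replicate 3 being the exception, with an adjusted p up to 0.0995 for CHD3 and 0.157 for HDAC1. TRIM28 did not pass, with 1543 ± 133 CPM in WT and 1654 ± 265 CPM in knockout libraries (edgeR adjusted p = 0.681). SETDB1, the histone methyltransferase recruited by TRIM28, was at 48.7 ± 2.89 and 32.2 ± 7.18 CPM (SD, n = 3 each), with an edgeR adjusted p of 0.0959. DESeq2 called 5 of the 30, namely SETDB1, CHD3, HDAC1, SMARCAD1 and KDM4A, which is near its share of 15.7% over all genes tested.

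The genes whose pattern over the 6 libraries was most like that of ZNF585A lay on other chromosomes. Likeness was the Euclidean distance between log2(CPM + 0.5) values centred on the WT mean, among the 11396 tested genes whose mean reached 2 CPM. The nearest were AMIGO2, an adhesion molecule (distance 0.125), the fibronectin gene FN1 (0.26), the non-coding LINC01561 (0.28), WNT5A, a Wnt ligand (0.30) and the non-coding LINC01711 (0.33). AMIGO2 was at 860, 965 and 855 CPM in WT against 259, 326 and 181 CPM in knockout libraries, 3.49-fold lower. WNT5A was at 835, 887 and 942 CPM against 259, 258 and 199 CPM, 3.72-fold lower. All 5 had their lowest value in knockout replicate 3, as ZNF585A did. These genes were picked for likeness, so their differences are a description. Among 349 zinc finger genes compared in the same way the nearest was ZNF516 on chromosome 18, at a distance of 1.14.

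**Figure D5:**
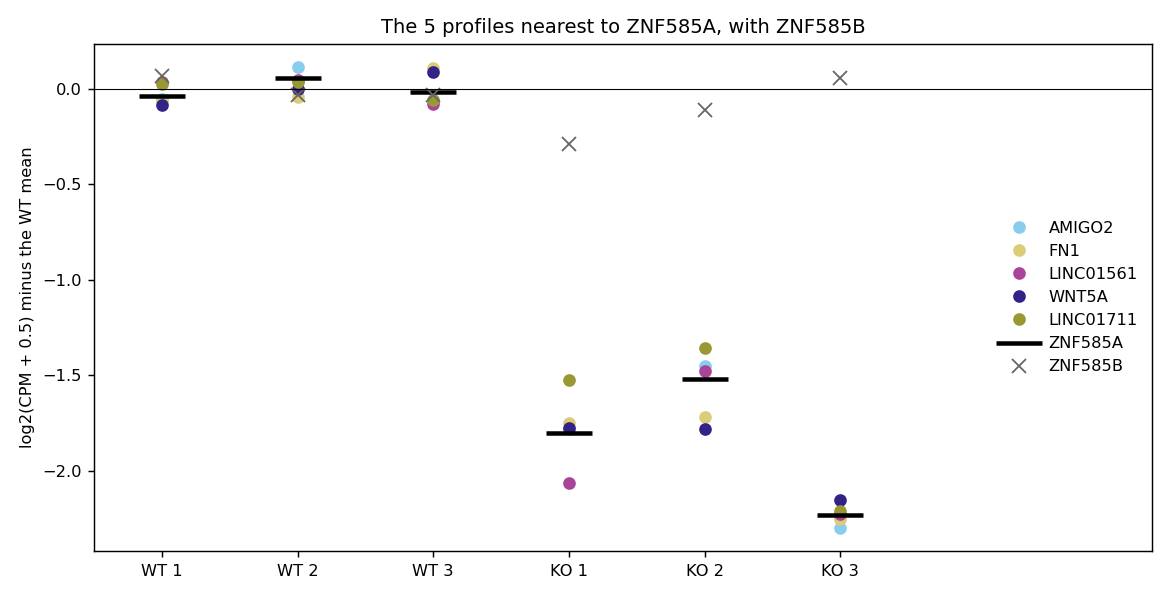
log2(CPM + 0.5) minus the WT mean in each library for ZNF585A (black dashes), the 5 genes nearest to it and ZNF585B (crosses). The 5 genes follow ZNF585A in every knockout (KO) library, while ZNF585B stays near 0, with 26.7 to 34.0 CPM in the knockout.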

How the data were processed

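Total RNA-seq libraries of 3 WT and 3 TOP3B knockout HT1080 samples were used. Each gene has an estimated count and, in a second table, an RPKM, both deposited by the authors for all 6 libraries. Salmon 1.10.1 and hg19 appear in the submitters' processing notes, with their roles not given in the sources used here. One entry named differently in the 2 tables was left out. Counts, whole numbers as deposited, went through filterByExpr and into edgeR 4.0.16 under R 4.3.3 (TMM scaling, quasi-likelihood F test, Benjamini-Hochberg adjustment over 13965 genes, threshold 0.05, 4 residual degrees of freedom). Fold changes give the knockout relative to WT. Standard errors come from the F statistic, and CPM uses TMM-scaled library sizes. Groups and WT replicate numbers follow the labels, and knockout numbers follow the order of deposition. Library totals of 17919106 to 20475280 counts limit precision for members with few counts. Intervals cover counting error only.

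Positions are from GENCODE v29 (GRCh38) and promoter windows from RefSeq (GRCh38.p14), and no hg19 position is used. Windows were aligned globally with Biopython 1.88. The named genes were the 10 members, called cofactors and called cluster genes, TOP3B and the 5 nearest profiles. The members and lists were chosen with earlier results of these data known. Alternatives were DESeq2 1.42.0, limma 3.58.1 (voom, and log2 RPKM with a pseudocount of 1 or 0.1), other scalings and filters, ZNF585A and ZNF585B summed, and each library left out. The tests were tried on simulated data.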

Additional observations from a re-analysis of the deposited data

How the results depend on the processing

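Of the 13965 genes, 1095 passed, and 2199 did with DESeq2. With each library left out the number ranged from 223 to 1899, the latter without knockout replicate 3. The count of members that passed was 1, and 2 (ZNF829 added) with DESeq2, upper quartile scaling, library size alone and a filter of 1 CPM in 3 libraries. It was 0 with ZNF585A and ZNF585B summed, and 1 to 2 with each library left out. The 19q13.12 list gave the same numbers, 2, 2, 2, 2, 0 and 1 to 2. Of the cofactors 2 passed, 5 with DESeq2, 1 with either pseudocount on log2 RPKM, 1 without a filter and 0 to 3 with each library left out. ZNF568, at 0.23, was -0.18 without WT replicate 3, -0.02 without knockout replicate 1 and -0.08 without knockout replicate 3, and lay between -0.18 and 0.77 in all 6 such fits. ZNF420, at 0.22, was -0.087 without knockout replicate 2 and lay between -0.087 and 0.52. The cause was not tested. ZNF585A kept its direction in the 15 alternatives of its own (the summed pair, at -0.48, is not among them), from -2.15 to -0.36 on the log2 scale. The last was on log2(RPKM + 1), which understates changes of low values. ZNF585A was chosen for its fall in these same libraries, so nothing is read from its kept direction. ZNF383, ZNF345, ZNF790 and ZNF793 kept their direction and stayed above the threshold of the adjusted p in 16 of 16 alternatives, and ZNF585B in 15 of 15. No paired analysis was possible because the knockout labels carry no replicate numbers. Depth limits ZNF570, ZNF568 and ZNF790 most, with 5, 64 and 50 counts over the WT libraries.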
